A study of Rattus norvegicus with 8 samples.

Results

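A panel of 36 genes of blood vessel endothelium, the cell layer that lines every vessel, and of the signals that make vessels grow was followed in rat kidney. The genes were chosen by symbol: 13 surface and junction proteins, 8 ligands and receptors of the VEGF, angiopoietin and Tie families, 3 adrenomedullin receptor subunits, 4 transcription factors, 4 genes of coagulation and nitric oxide, 2 selectins and 2 other endothelial genes. The arrays carried a probe for 32 of them. Of these, 28 could be tested among 21420 genes in all. Robo4, Egfl7, Ptprb and Mmrn2 had no named probe and were not analysed here. Probes for Sox17, Procr, Sele and Selp were too dim to test.

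Total RNA from kidney was hybridised to 8 single-colour Agilent arrays, 4 per group. The Control group received 0.5% methylcellulose, a vehicle, for 4 weeks. The other group, labelled APL, received 150 mg/kg of a compound over the same 4 weeks. APL is taken here to be allopurinol, a xanthine oxidase inhibitor, because the series title names allopurinol as the agent of its renal fibrosis model. All animals were male SD rats, an outbred stock, aged 10 weeks, with no genetic change named in the labels. The tissue label is kidney, although renal tubules are named in the title. No label states that the replicates were separate animals, so the p-values measure the spread between these samples, which may be technical.

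Endothelial cells are held together by junction proteins such as VE-cadherin and PECAM-1, and depend on VEGF-A made by neighbouring cells, which in the kidney include podocytes and tubule cells. VEGF-A acts through the receptor kinases VEGFR-2 and VEGFR-1, while the angiopoietins act through TIE2 and its partner TIE1. In the kidney the endothelium of glomeruli and peritubular capillaries is fenestrated, and loss of peritubular capillaries is a known feature of renal fibrosis.

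Values are relative signals, meaning the background-corrected processed signal of a probe divided by the 75th percentile of that array. A probe is called measured on an array where the scanner software marked it well above background. Fold changes come from log2 values, with relative signals under 0.005 raised to that floor, and are APL over Control with their standard error (SE). A gene is called higher or lower at a Benjamini-Hochberg adjusted p under 0.05 in limma, adjusted over the 21420 genes. The 75th percentile itself was higher with APL, at 455 ± 53.0 (SD, n = 4) against 291 ± 18.1 (SD, n = 4), which passed an exact 2-sided permutation test with the smallest p that 70 splits allow (p = 0.0286). Measured probes rose with it, from 75% ± 1.53 to 80.8% ± 0.838 (SD, n = 4 each), and no probe was saturated. Each of the 2 slides carried 2 arrays of each group.

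Of the 28 genes tested, 12 were lower with APL and 0 were higher. Among all 21420 genes, 11.5% were lower and 11.9% higher. The 12 lower genes were Plvap, Emcn, Tek, Kdr, Vwf, Fli1, Tie1, Pecam1, Flt1, Calcrl, Sox18 and Vegfa, each by at least 2-fold. They include both main VEGF receptors, both Tie kinases, VEGF-A itself and the diaphragm protein of fenestrated capillaries. In 11 of the 28 genes tested, all 4 APL arrays lay below all 4 Control arrays, against 15.9% of all genes. None of the 28 lay wholly above, against 14.0% of all genes. The median log2 fold change was -0.93 over the 28 genes and -0.03 over all genes. Since the tested genes had to be measured on 4 of 8 arrays, a gene measured in 1 group alone could pass only by being dimmer in the other, so this median and these counts describe the panel and support nothing further. Of the 12 lower genes, 7 were measured on all 8 arrays. The other 5, Emcn, Tek, Fli1, Tie1 and Calcrl, were not measured on all APL arrays, and the size of their fold changes rests on the floor. In bulk tissue, fewer endothelial cells and less RNA per endothelial cell cannot be told apart. The part of other cell types in these values, Vegfa among them, was not tested.

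**Figure D1:**
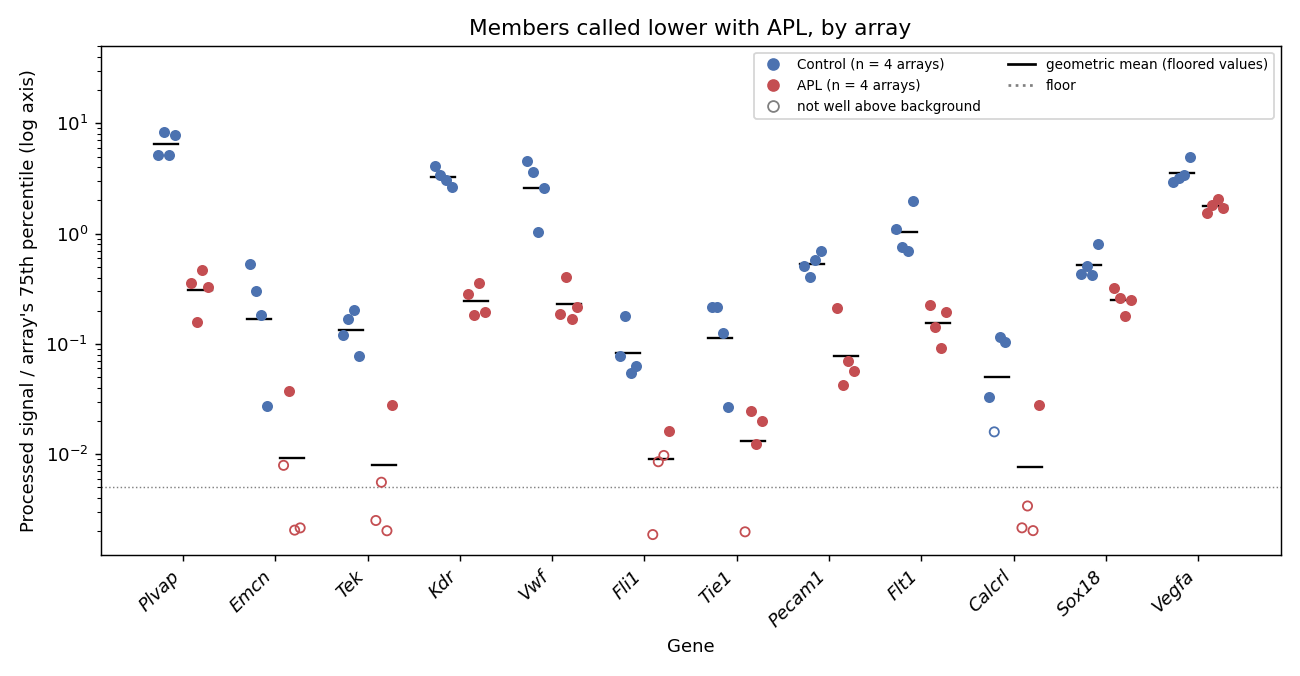
Relative signal (processed signal over the array's 75th percentile, log axis) of the 12 genes called lower, one point per array (blue Control, red APL, n = 4 each), with bars at the geometric mean of the floored values and open circles where the probe was not well above background. Plvap, Kdr, Vwf, Pecam1, Flt1, Sox18 and Vegfa were measured on all 8 arrays with no overlap, while Emcn and Calcrl overlap.

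Among surface and junction proteins, 3 of the 10 tested were lower, against 11.5% of all genes: Plvap, Pecam1 and Emcn. Plvap encodes the protein of the diaphragms that span endothelial fenestrae. Its relative signal was 5.2, 8.28, 5.16 and 7.78 in Control replicates 1 to 4 and 0.357, 0.159, 0.472 and 0.325 in APL replicates 1 to 4. Every APL array lay more than 10-fold below every Control array. The log2 fold change was -4.40 ± 0.37 (SE, adjusted p = 0.000157, limma), or 21.1-fold lower. Within slide 1 it was -4.78 and within slide 2 it was -4.02.

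Pecam1 encodes PECAM-1 (CD31), an adhesion molecule of the junctions between endothelial cells that platelets and leukocytes also carry. Control arrays read 0.510, 0.404, 0.574 and 0.701, and APL arrays 0.211, 0.0424, 0.0699 and 0.0571. The groups did not overlap, and APL replicate 1 was the highest of its group. Pecam1 fell by 2.80 ± 0.49 (SE) on the log2 scale (adjusted p = 0.00525, limma), with -2.26 on slide 1 and -3.33 on slide 2. With normexp background correction before the 75th percentile scaling its change was -0.87 (adjusted p = 0.408, limma), and the call was lost.

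Emcn encodes endomucin, a sialomucin of venous and capillary endothelium. Its probe read 0.527, 0.299, 0.181 and 0.0275 in Control replicates 1 to 4 and was measured on all of them. In the APL group it was measured on replicate 2 alone, at 0.0372, and read 0.00794, 0.00205 and 0.00215 on replicates 1, 3 and 4. That single APL value lay above Control replicate 4, so the groups overlapped. The log2 fold change was -4.18 ± 1.01 (SE, adjusted p = 0.0215, limma), and it became -2.84 with the floor at 0.02. The call was lost without Control replicate 1 or 2, or without APL replicate 1, 3 or 4, with adjusted p-values in limma of 0.0501, 0.0549, 0.0511, 0.0559 and 0.0626. With normexp and the 75th percentile it was -0.42 and not called.

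Cdh5 encodes VE-cadherin, the adherens junction cadherin that defines endothelium. Control values were 1.46, 0.344, 1.98 and 0.0810, a wide spread, and APL values 0.110, 0.118, 0.0649 and 0.0801. All APL arrays lay below 3 of the Control arrays, while Control replicate 4 lay among them. The log2 fold change of -2.55 ± 0.95 (SE) did not pass (adjusted p = 0.0886, limma). Without Control replicate 4 it was -3.46 and passed (adjusted p = 0.00923, limma), and under quantile normalization it was -2.75 and passed (adjusted p = 0.0490, limma). Leaving out any other array gave no call, with adjusted p from 0.119 to 0.180 (limma).

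Eng, endoglin, a co-receptor for TGF-beta family ligands, had the same Control array low. It read 1.32, 1.58, 0.867 and 0.214 in Control and 0.437, 0.199, 0.165 and 0.600 in APL, a log2 fold change of -1.37 ± 0.70 (SE, adjusted p = 0.195, limma). Without Control replicate 4 it was -2.0 and passed (adjusted p = 0.0358, limma). No other array left out gave a call for Eng, with adjusted p from 0.172 to 0.362 (limma).

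Cldn5, the tight junction protein claudin-5, varied little within each group. Control arrays read 0.165, 0.161, 0.181 and 0.155 and APL arrays 0.131, 0.130, 0.117 and 0.106. The groups did not overlap, but the log2 fold change of -0.46 ± 0.17 (SE) missed the threshold (adjusted p = 0.0972, limma). The call was gained with quantile normalization, at -0.74 (adjusted p = 0.0277, limma), and with no filter on dim probes (adjusted p = 0.0194, limma), while the sign turned without scaling, at 0.18, and with normexp and the 75th percentile, at 0.29.

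Clec14a encodes a C-type lectin of tumour and developing vessels, and its pair of probes disagreed. The probe used, with the higher mean log2 value over the 8 arrays, read 0.144, 0.125, 0.375 and 0.100 in Control and 0.101, 0.151, 0.146 and 0.0612 in APL, a log2 fold change of -0.58 ± 0.48 (SE, adjusted p = 0.412, limma). The other read 0.483, 0.129, 0.631 and 1.1 in Control and 0.0160, 0.0705, 0.0495 and 0.00658 in APL, where replicate 4 was not measured. On that probe the groups did not overlap and the difference was -4.21 on the log2 scale (exact 2-sided permutation p = 0.0286). With the mean of both probes Clec14a was called lower, at -2.40 (adjusted p = 0.0250, limma).

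The remaining surface genes leaned no single way. Esam, an adhesion molecule of endothelial tight junctions, read 0.248, 0.236, 0.0999 and 0.112 in Control and 0.235, 0.469, 0.237 and 0.405 in APL. Its log2 fold change was 1.0 ± 0.41 (SE, adjusted p = 0.113, limma), and it was called higher only where arrays were not scaled (1.64, adjusted p = 0.0153, limma). Cd34, the sialomucin of vascular endothelium and of haematopoietic progenitors, read 0.475, 0.712, 0.00737 and 0.251 in Control and 0.976, 0.0427, 1.18 and 0.934 in APL. Each group had a single array far below its others, and the 95% interval of the log2 change ran from -2.24 to 5.35. Icam2, a ligand of leukocyte integrins held on resting endothelium, read 0.202, 0.0880, 0.0163 and 0.00725 in Control and 0.0133, 0.0107, 0.0569 and 0.0757 in APL. The Icam2 difference was -3.48 on slide 1 and 2.59 on slide 2, and -0.45 ± 1.15 (SE) over both.

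Of the 8 ligands and receptors of the VEGF, angiopoietin and Tie families, 5 were lower, all with no overlap between groups. Over all genes, 11.5% were lower and 15.9% had all 4 APL arrays below all 4 Control arrays. Kdr encodes VEGFR-2, the kinase that carries most of the growth signal of VEGF-A. Its relative signal was 4.13, 3.38, 3.06 and 2.65 in Control and 0.285, 0.183, 0.357 and 0.195 in APL. Both groups were tight, and the log2 fold change of -3.73 ± 0.28 (SE) had the lowest adjusted p of the panel (9.32e-05, limma). Kdr was 13.3-fold lower, with -4.03 on slide 1 and -3.43 on slide 2.

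Flt1 encodes VEGFR-1, which binds VEGF-A tightly and signals weakly, and which also binds placental growth factor. Control arrays read 1.11, 0.751, 0.695 and 1.98, and APL arrays 0.224, 0.143, 0.0920 and 0.197. Flt1 fell by 2.74 ± 0.42 (SE) on the log2 scale (adjusted p = 0.00290, limma), or 6.68-fold. The change was -1.36 with normexp and the 75th percentile, and the call was lost (adjusted p = 0.137, limma).

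Flt4 encodes VEGFR-3, the receptor for VEGF-C and VEGF-D that is prominent on lymphatic endothelium. It read 1.13, 1.16, 1.16 and 0.976 in Control and 2.75, 0.956, 0.923 and 0.828 in APL. Apart from APL replicate 1, all arrays lay close together, and the log2 fold change was 0.11 ± 0.39 (SE), with a 95% interval from -0.78 to 1.0. Without that array it was -0.29. The second Flt4 probe gave -0.15 (exact 2-sided permutation p = 0.800).

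Vegfa, the ligand, was carried by 4 probes. The brightest read 2.95, 3.21, 3.39 and 4.98 in Control and 1.53, 1.82, 2.07 and 1.71 in APL. No APL array reached the lowest Control array, and Vegfa fell by 1.0 ± 0.23 (SE) on the log2 scale (adjusted p = 0.0170, limma), or 2.01-fold. The other 3 probes differed by -1.14, -1.56 and -1.98, with exact 2-sided permutation p-values of 0.0571, 0.114 and 0.0286. All 4 probes were thus lower on average, with overlap between groups on 2 of them. Without scaling between arrays, which raised the median of all genes to 0.60, the change of Vegfa was -0.37 and it was not called (adjusted p = 0.299, limma).

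Tek encodes TIE2, the angiopoietin receptor. It read 0.121, 0.169, 0.205 and 0.0779 in Control and was measured on all 4 arrays. In APL replicate 4 it was measured at 0.0282, and it was not measured on replicates 1 to 3 (0.00251, 0.00558 and 0.00203). The groups did not overlap, and the log2 fold change was -4.09 ± 0.61 (SE, adjusted p = 0.00259, limma), which became -2.63 with the floor at 0.02 and was still called. Tie1, the partner kinase of TIE2, read 0.218, 0.217, 0.125 and 0.0269 in Control. In APL it read 0.00198, 0.0246, 0.0125 and 0.020, measured on replicates 2 to 4. The highest APL array lay just under the lowest Control array, and Tie1 fell by 3.09 ± 0.77 (SE) on the log2 scale (adjusted p = 0.0250, limma). The Tie1 call was lost without Control replicate 1, 2 or 3, or without APL replicate 1 or 3, with adjusted p-values of 0.0604, 0.0623, 0.0537, 0.0555 and 0.0574 (limma). Tek stood at -0.06 and Tie1 at -0.09 with normexp and the 75th percentile, and neither was called.

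The ligands of TIE2 were dim and variable. Angpt1, the activating ligand, read 0.0654, 0.0861, 0.0172 and 0.0794 in Control and 0.00271, 0.0760, 0.0446 and 0.199 in APL. Angpt2, the ligand released by activated endothelium, read 0.0575, 0.0170, 0.112 and 0.00356 in Control and 0.00271, 0.250, 0.00206 and 0.0422 in APL. Both spread over more than 10-fold within the APL group, and their log2 fold changes of -0.30 ± 1.09 and -0.26 ± 1.47 (SE) had 95% intervals of -2.82 to 2.22 and -3.64 to 3.12. At this precision a change of several fold in either direction was not detectable.

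**Figure D2:**
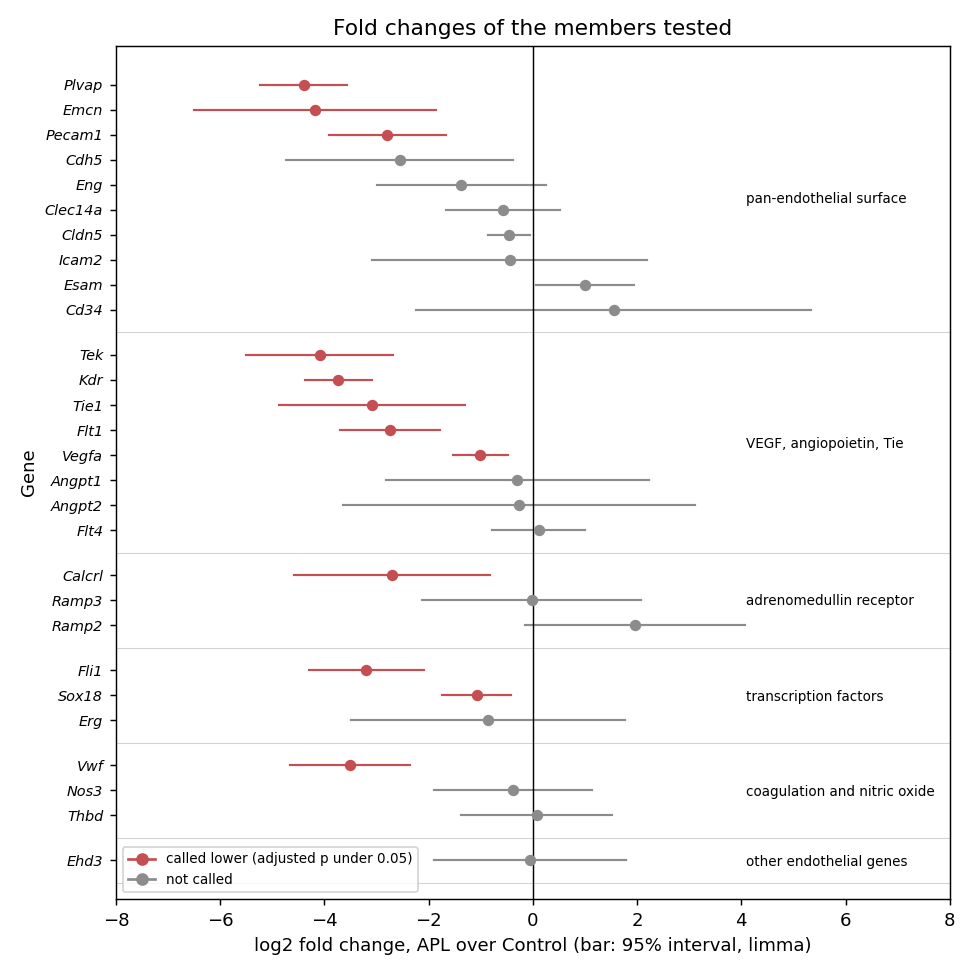
Log2 fold change (APL over Control, limma) with its 95% interval for the 28 genes tested, grouped by role, red where called lower and grey where not called. Plvap and Kdr lie far below 0 with short bars, while Cd34, Angpt2, Icam2 and Erg have wide bars that cross 0.

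A list of 16 further genes of the VEGF and angiopoietin families gave 3 higher and 1 lower of 13 tested. These are 23.1% and 7.69%, against 11.9% and 11.5% of all genes. Pgf, placental growth factor, a ligand of VEGFR-1 and not of VEGFR-2, was measured on 0 of 4 Control arrays and read 0.587, 0.654, 0.162 and 0.438 in APL. Pgf was at least 25.3-fold higher, a bound set by the lowest measured signal of each Control array or the probe's own signal there. Its call (adjusted p = 0.000114, limma) was made on Control values that were not measured. As Pgf passed the filter through its APL arrays alone, that p-value adds no support to the bound. Esm1, endocan, a proteoglycan that VEGF induces in endothelial tip cells, read 0.676, 0.496, 0.769 and 1.09 in Control and 0.109, 0.0216, 0.00859 and 0.0514 in APL, where replicate 3 was not measured. Esm1 fell by 4.51 ± 0.73 (SE) on the log2 scale (adjusted p = 0.00378, limma). Of the VEGFR-1 ligands tested, Vegfa was thus lower, as was the receptor gene Flt1, while Pgf was higher. Vegfb, from the same list, was not tested.

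The lymphatic ligands and the co-receptors did not pass the test. Vegfc changed by -1.53 ± 0.83 (SE), Vegfd by -1.62 ± 0.57 (SE), and the neuropilins Nrp1 and Nrp2, which hold VEGF-A at its receptors, by 0.12 ± 0.43 and -0.33 ± 0.67 (SE), all on the log2 scale. Angpt4, a further TIE2 ligand, changed by -0.56 ± 0.33 (SE). Of the angiopoietin-like genes, Angptl4, a lipoprotein lipase inhibitor, rose by 3.59 ± 0.73 (SE, adjusted p = 0.0107, limma) and Angptl2 by 1.55 ± 0.37 (SE, adjusted p = 0.0207, limma). No gene of this list was lower with normexp and the 75th percentile, where 971 of all genes were, against 2472 as reported.

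**Figure D3:**
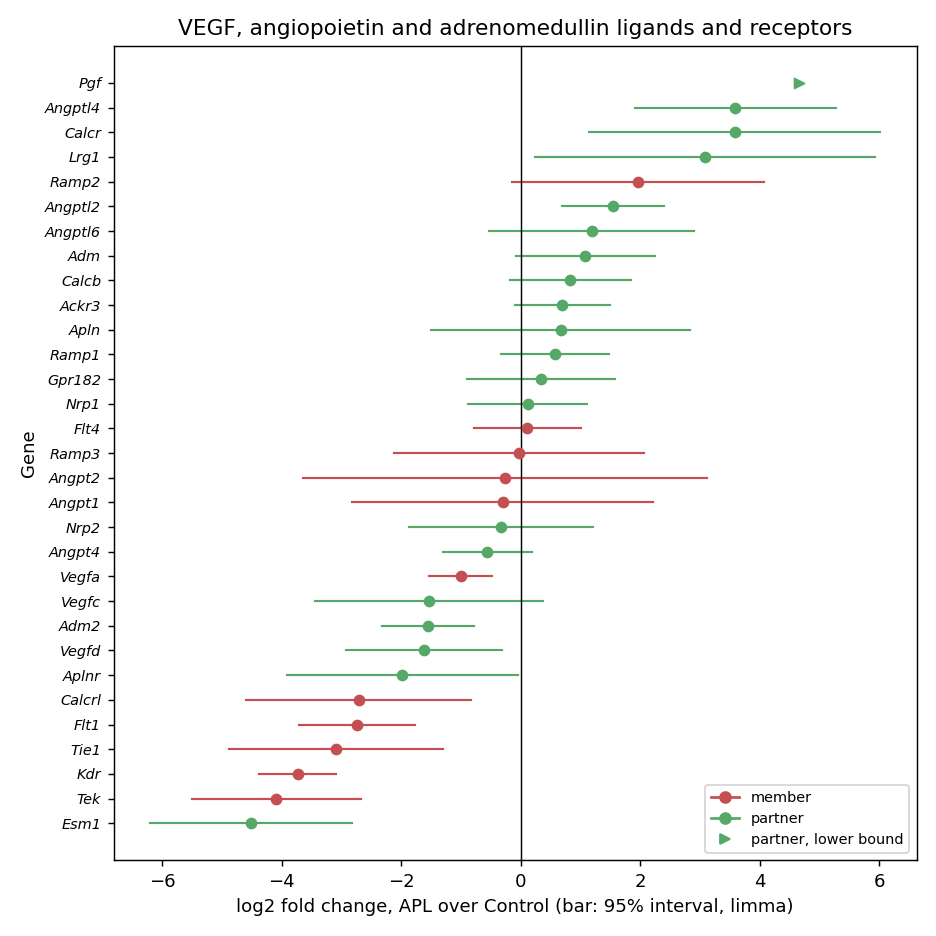
Log2 fold change (APL over Control, limma) with its 95% interval for ligands, receptors and co-receptors of the VEGF, angiopoietin and adrenomedullin systems, red for panel genes and green for partner genes, with an arrowhead for a lower bound. Pgf, Angptl4 and Calcr lie highest, and Esm1, Tek and Kdr lowest.

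The adrenomedullin receptor is made of Calcrl, the receptor proper, with RAMP2 or RAMP3, which carry it to the surface and set its ligand. Calcrl was lower, 1 of the 3 subunits tested, against 11.5% of all genes. It read 0.0329, 0.0160, 0.115 and 0.105 in Control, with replicate 2 not measured, and 0.00215, 0.00340, 0.00203 and 0.0278 in APL, where replicate 4 alone was measured. The groups overlapped through those arrays, and the log2 fold change was -2.71 ± 0.82 (SE, adjusted p = 0.0463, limma). Of the 12 calls this one was lost under the most alternatives. It was lost in 6 of the 8 fits that left out an array (without Control replicate 1, 3 or 4, or APL replicate 1, 2 or 3, with adjusted p from 0.0688 to 0.108, limma), with the floor at 0.02 (-1.29), with no filter on dim probes (adjusted p = 0.0735, limma), without scaling (-2.26) and with both normexp settings, 1 of which turned its sign (0.23).

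Ramp2 read 0.0765, 0.0324, 0.0159 and 0.00957 in Control, measured on the first 2 alone, and 0.132, 0.131, 0.0192 and 0.259 in APL. Only APL replicate 3 lay within the Control range. The log2 fold change was 1.96 ± 0.91 (SE, adjusted p = 0.159, limma), and without APL replicate 3 it was 2.74 and called higher (adjusted p = 0.0406, limma). Leaving out any other array gave no call, with adjusted p from 0.0965 to 0.330 (limma). Ramp3 read 0.0509, 0.00772, 0.0468 and 0.00538 in Control and 0.0359, 0.0299, 0.0145 and 0.00595 in APL, with a 95% interval of the log2 change from -2.12 to 2.07.

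Among 8 partners of this receptor, 7 were tested, with 1 higher and 1 lower. Each is 14.3% of those tested, near the 11.9% higher and 11.5% lower of all genes. Adm2, intermedin, a ligand of the same receptors, read 2.14, 2.14, 3.58 and 1.85 in Control and 0.614, 0.774, 0.641 and 1.37 in APL. It fell by 1.54 ± 0.33 (SE) on the log2 scale (adjusted p = 0.0139, limma). Adm, adrenomedullin, changed by 1.09 ± 0.50 (SE, adjusted p = 0.158, limma), Calcb, a calcitonin gene-related peptide, by 0.83 ± 0.44 (SE, adjusted p = 0.210, limma) and Ramp1, the subunit that makes the receptor prefer that peptide, by 0.57 ± 0.39 (SE, adjusted p = 0.323, limma). Calcr, the calcitonin receptor, which also pairs with RAMPs, was higher by 3.58 ± 1.06 (SE, adjusted p = 0.0434, limma), with 1 of 4 Control arrays measured and overlap between groups. Neither call held with normexp and the 75th percentile. Without scaling 5 of the 7 were higher and 0 lower. That setting called 5889 genes higher and 1143 lower among all, against 2558 and 2472 as reported.

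Of the transcription factors, 2 of 3 tested were lower, against 11.5% of all genes. Fli1, an Ets family factor of endothelium and blood cells, read 0.0775, 0.179, 0.0550 and 0.0628 in Control and 0.00187, 0.00856, 0.00976 and 0.0164 in APL, where replicate 4 alone was measured. It fell by 3.19 ± 0.48 (SE) on the log2 scale (adjusted p = 0.00254, limma), and was at -2.06 with the floor at 0.02. Under normexp and the 75th percentile Fli1 stood at 0.11 and was not called (adjusted p = 0.916, limma). Sox18, a SoxF factor of developing vessels, read 0.431, 0.513, 0.419 and 0.809 in Control and 0.321, 0.261, 0.180 and 0.253 in APL, measured on every array. Sox18 fell by 1.07 ± 0.29 (SE, adjusted p = 0.0315, limma), a call lost without Control replicate 2 or 4, or APL replicate 2, 3 or 4 (adjusted p of 0.0658, 0.0587, 0.0662, 0.0740 and 0.0709, limma), and also without scaling (-0.44).

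Erg, the Ets factor most closely tied to endothelial identity, varied widely within each group. It read 0.228, 0.0669, 0.185 and 1.40 in Control and 0.0748, 0.169, 0.0374 and 0.773 in APL. Replicate 4 was the highest array of both groups, and the log2 fold change was -0.86 ± 1.14 (SE), with a 95% interval from -3.5 to 1.78. Sox17, the SoxF factor of arterial endothelium, read between 0.00210 and 0.00523 and was measured on no array. A list of 26 further transcription factors expressed in endothelium had 3 higher and 0 lower of 21 tested. The higher share of 14.3% was near the 11.9% of all genes, while 11.5% of all genes were lower. Among them Ets2 rose by 1.45 ± 0.28 (SE, adjusted p = 0.0118, limma), with APL replicate 1 missing after its outlying spots were left out. Heyl, a Notch target, rose by 3.22 ± 0.75 (SE, adjusted p = 0.0191, limma).

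Ets factors such as FLI1 and ERG bind sites with the core GGAA, and many endothelial genes are known to be their targets. The promoters of 4 lower genes are shown, the VEGF receptors Kdr and Flt1, the kinase Tie1 and the fenestral gene Plvap, so that these cores can be seen. Each is the 250 bases before the start of the gene, 5′ to 3′ on the gene's own strand, from RefSeq on build GRCr8. The windows are chr14:32571813-32572062 on the plus strand for Kdr, chr12:12333180-12333429 on the plus strand for Flt1, chr5:137304982-137305231 on the minus strand for Tie1 and chr16:18231280-18231529 on the minus strand for Plvap. Capitals mark GGAA or, on the other strand, TTCC.
Kdr: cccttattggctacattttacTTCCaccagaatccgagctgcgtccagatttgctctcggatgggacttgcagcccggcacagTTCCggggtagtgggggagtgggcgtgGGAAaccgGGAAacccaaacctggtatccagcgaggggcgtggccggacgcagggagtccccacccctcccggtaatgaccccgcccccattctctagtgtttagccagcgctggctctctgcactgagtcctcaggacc
Flt1: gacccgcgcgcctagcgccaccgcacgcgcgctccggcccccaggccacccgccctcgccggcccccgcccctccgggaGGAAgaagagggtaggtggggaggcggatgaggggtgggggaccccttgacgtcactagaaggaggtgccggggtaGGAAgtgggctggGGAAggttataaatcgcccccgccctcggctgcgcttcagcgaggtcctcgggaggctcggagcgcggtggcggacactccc
Tie1: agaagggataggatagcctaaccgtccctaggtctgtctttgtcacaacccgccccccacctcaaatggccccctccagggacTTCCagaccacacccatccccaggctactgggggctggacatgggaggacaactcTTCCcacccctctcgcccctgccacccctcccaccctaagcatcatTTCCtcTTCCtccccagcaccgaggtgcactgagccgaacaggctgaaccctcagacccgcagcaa
Plvap: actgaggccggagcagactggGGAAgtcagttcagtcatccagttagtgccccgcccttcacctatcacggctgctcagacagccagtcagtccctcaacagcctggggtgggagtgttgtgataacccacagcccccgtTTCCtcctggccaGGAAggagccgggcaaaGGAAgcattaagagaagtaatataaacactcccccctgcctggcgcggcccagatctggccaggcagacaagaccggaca

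Kdr, Tie1 and Plvap held 4 such cores each and Flt1 held 3. Counted from the start of the gene, the closest core began at base -60 in Tie1, -80 in Plvap, -82 in Flt1 and -132 in Kdr. Of the 36 genes, 21 had a promoter entry, with 23 windows in all. GGAA was present in 22 of the 23, against 93.2% of 33469 rat promoter windows of the same length, so the core alone did not set these genes apart. The longer string AGGAAG, which contains GGAA, stood on either strand in 13 of 23 windows, against 29.5% of all windows. These belonged to the lower genes Flt1, Tie1, Plvap and Emcn, to Eng, Erg, Flt4 and Nos3, which were not called, and to Egfl7, Mmrn2, Procr, Robo4 and Sele, which were not tested. Kdr, Calcrl and Vegfa, also lower, held none. The string CCGGAA, which also contains GGAA, was found in Kdr alone, against 12.6% of all. These strings were chosen with the values known, and a match is a description of letters and not of a bound site. The core of hypoxia response elements, ACGTG, stood in 4 of the 23 windows against 16.6% of all, and in neither Vegfa window. Bases outside these windows were not searched, so this does not show that Vegfa lacks such an element.

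In the coagulation and nitric oxide group, 1 of 3 tested was lower, against 11.5% of all genes. Vwf encodes von Willebrand factor, the platelet-binding protein stored in endothelial granules. It read 4.56, 3.66, 1.04 and 2.61 in Control and 0.188, 0.403, 0.167 and 0.217 in APL. Every array was measured and the groups did not overlap, with a log2 fold change of -3.5 ± 0.50 (SE, adjusted p = 0.00205, limma), or 11.3-fold lower. A second Vwf probe read 8.81, 5.56, 0.424 and 4.30 in Control and 0.00858, 0.0403, 0.00967 and 0.218 in APL, where replicates 1 and 3 were not measured. On that probe the difference was -6.72 (exact 2-sided permutation p = 0.0286), and Control replicate 3 was lowest of the Control arrays on both.

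Nos3, endothelial nitric oxide synthase, read 0.0567, 0.0389, 0.0227 and 0.0196 in Control and 0.0169, 0.0928, 0.0153 and 0.0144 in APL. APL replicate 2 lay above all Control arrays and the other 3 below them, giving -0.37 ± 0.66 (SE) on the log2 scale. Thbd, thrombomodulin, the endothelial cofactor for protein C activation, read 0.158, 0.288, 0.0628 and 0.0532 in Control and 0.187, 0.0551, 0.172 and 0.104 in APL, a change of 0.07 ± 0.63 (SE). The second Thbd probe gave -1.09 (exact 2-sided permutation p = 0.400). Procr, the endothelial protein C receptor, was measured on 1 array alone, APL replicate 4, at 0.0279.

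The 2 selectins, Sele and Selp, which catch rolling leukocytes on activated endothelium, were measured on 0 of 8 arrays. Their probes read at most 0.00573, so no change in either could be seen. Ehd3, an endocytic protein enriched in glomerular endothelium, read 0.318, 0.0603, 0.0852 and 0.231 in Control and 0.489, 0.0468, 0.105 and 0.136 in APL, with a 95% interval of the log2 change from -1.89 to 1.79.

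**Figure D4:**
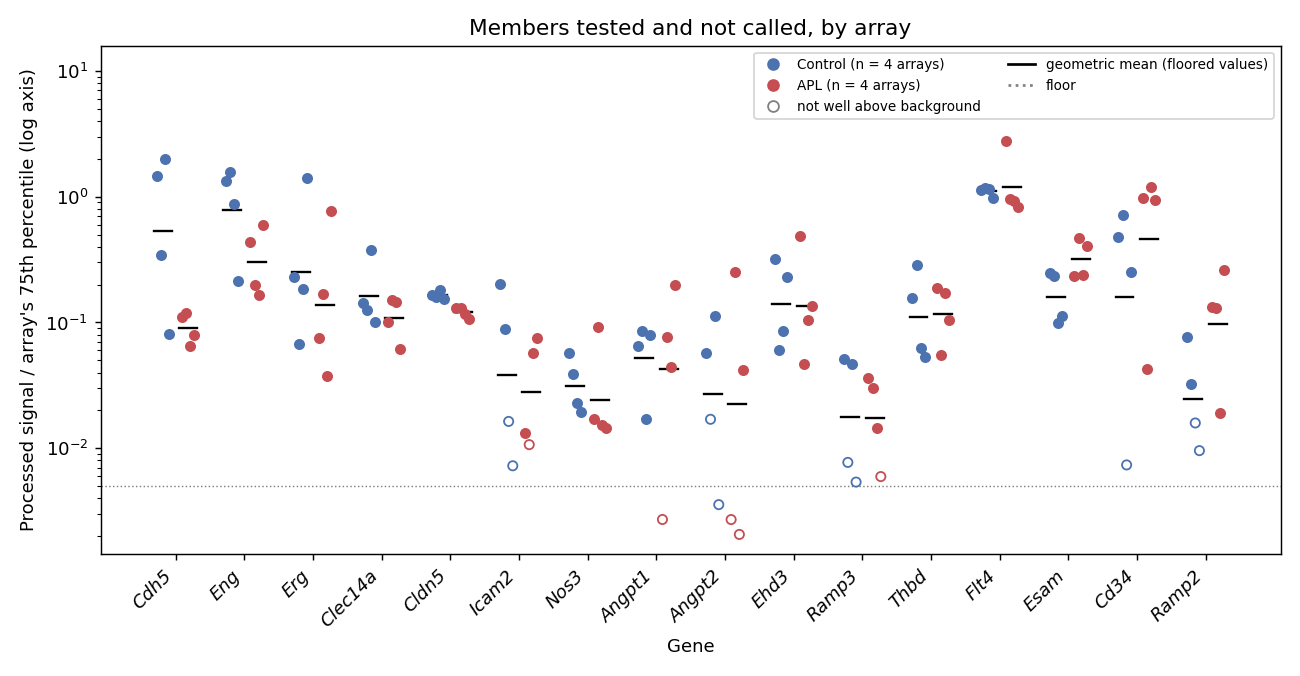
Relative signal (processed signal over the array's 75th percentile, log axis) of the 16 genes tested and not called, one point per array (blue Control, red APL, n = 4 each), with bars at the geometric mean of the floored values and open circles where the probe was not well above background. Cldn5 is the gene whose groups do not overlap, and Cd34, Erg and Angpt2 spread over more than 10-fold within a group.

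Genes that act beside the panel were counted in further lists. Here and in the lists below, the 11.9% higher and 11.5% lower of all genes are the shares to set beside each count of the reported fit. Of 21 further haemostasis genes, 18 were tested, with 8 higher and 1 lower. Plat, tissue plasminogen activator, rose by 4.30 ± 0.43 (SE, adjusted p = 0.000402, limma). F2rl1, the protease-activated receptor PAR2, rose by 4.06 ± 1.22 (SE, adjusted p = 0.0460, limma) and Ptgs1, the cyclooxygenase COX-1, by 3.69 ± 0.86 (SE, adjusted p = 0.0185, limma), each measured on 2 Control arrays. Anxa5, annexin A5, which shields membrane phospholipids from clotting factors, rose by 3.71 ± 0.44 (SE, adjusted p = 0.000814, limma). Proc, protein C, the substrate of the thrombomodulin complex, fell by 3.68 ± 0.54 (SE, adjusted p = 0.00228, limma), was measured on 1 APL array, and is named here after its values were seen.

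Leukocyte adhesion and junction partners gave 3 higher and 0 lower of 13 tested. Icam1, the inducible integrin ligand, read 0.663, 0.457, 1.1 and 0.0924 in Control and 4.84, 7.44, 10.8 and 9.65 in APL, a rise of 4.22 ± 0.72 (SE, adjusted p = 0.00484, limma). Pvr, a nectin-like adhesion protein measured on 2 Control arrays, rose by 5.19 ± 1.07 (SE, adjusted p = 0.0114, limma), and Tjp1, the junction scaffold ZO-1, by 1.79 ± 0.42 (SE, adjusted p = 0.0195, limma). Icam1 is also made by injured tubule cells, and its level here is that of all cells in the tissue sampled. Nitric oxide and vasoactive genes gave 3 higher and 4 lower of 11. Cav2, a coat protein of caveolae measured on 2 Control arrays, rose by 4.25 ± 1.26 (SE, adjusted p = 0.0440, limma). Agtr1a, the main angiotensin II receptor, was at -3.70 ± 0.57 on the log2 scale (SE, adjusted p = 0.00297, limma), Arg2, an arginase that competes with nitric oxide synthase for arginine, at -3.08 ± 0.65 (SE, adjusted p = 0.0130, limma) and Ddah1, which degrades a natural inhibitor of that synthase, at -2.25 ± 0.30 (SE, adjusted p = 0.00155, limma). Ddah2, its relative, named after its values were seen, moved the other way, by 1.49 ± 0.25 (SE, adjusted p = 0.00465, limma). Cav1, the third higher gene of this list, is described among the endothelial markers.

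Hypoxia-inducible factors and their targets gave 0 higher and 3 lower of 18 tested, against 11.5% lower of all genes. Ndrg1 fell by 1.15 ± 0.22 (SE, adjusted p = 0.00808, limma) and Bnip3 fell by 1.05 ± 0.32 (SE, adjusted p = 0.0475, limma). Ankrd37, named after its values were seen, was lower with overlap between groups. Epas1, likewise named afterwards, encodes HIF-2alpha, the hypoxia-inducible factor prominent in endothelium. It read 1.02, 1.5, 0.317 and 0.265 in Control and 0.226, 0.106, 0.0317 and 0.163 in APL, a change of -2.50 ± 0.77 (SE) that just missed the threshold (adjusted p = 0.0502, limma). Without scaling 1 of these genes was higher and 0 lower, and with normexp and the 75th percentile 0 were lower. Among all genes 1143 were lower without scaling and 971 with normexp and the 75th percentile, against 2472 as reported.

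Endogenous angiogenesis inhibitors had 4 higher and 2 lower of 9 tested. Adamts1, a protease that binds VEGF-A, rose by 4.78 ± 0.42 (SE, adjusted p = 0.000211, limma), Cxcl10, a chemokine that restrains vessel growth, by 2.80 ± 0.39 (SE, adjusted p = 0.00191, limma), and Thbs1, thrombospondin-1, by 1.80 ± 0.54 (SE, adjusted p = 0.0463, limma). Timp3, which blocks VEGF-A from VEGFR-2, fell by 1.95 ± 0.31 (SE, adjusted p = 0.00325, limma). Vascular growth factors outside the VEGF family gave 5 higher and 1 lower of 15. Cxcl1, a chemokine for neutrophils, rose by 3.69 ± 0.51 (SE, adjusted p = 0.00178, limma), Tnfrsf12a, the receptor of TWEAK, by 2.29 ± 0.56 (SE, adjusted p = 0.0224, limma) and Ccn1, a matrix protein that promotes vessel growth, by 1.47 ± 0.40 (SE, adjusted p = 0.0335, limma). Cxcl2, measured on 0 of 4 Control arrays, was at least 5.13-fold higher. Its call (adjusted p = 0.00542, limma) was made on Control values that were not measured, and adds no support to that bound. Met, the receptor of hepatocyte growth factor, named after its values were seen, rose by 1.28 ± 0.34 (SE, adjusted p = 0.0303, limma). The lower gene was Cxcl12, a chemokine that guides endothelial and blood cells, at -4.03 ± 0.36 (SE, adjusted p = 0.000213, limma).

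Notch, ephrin and guidance genes of vessels gave 3 higher and 0 lower of 17, with Notch1 up by 1.62 ± 0.42 (SE, adjusted p = 0.0284, limma). TGF-beta superfamily and sphingosine receptor genes gave 0 higher and 2 lower of 11, namely Bmp4 at -2.99 ± 0.42 (SE, adjusted p = 0.00200, limma) and Id2 at -1.35 ± 0.35 (SE, adjusted p = 0.0275, limma). Without scaling between arrays the higher counts of these 2 lists became 8 and 3, while that of all genes went from 2558 to 5889.

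A list of 26 further endothelial markers, not all particular to endothelium, gave 3 higher and 6 lower of 21 tested. These are 14.3% and 28.6%, against 11.9% and 11.5% of all genes. Adgrl4, an adhesion receptor of vessels, read 0.538, 0.614, 0.367 and 0.406 in Control and 0.0995, 0.0722, 0.0459 and 0.130 in APL, a fall of 2.54 ± 0.35 (SE, adjusted p = 0.00182, limma). Podxl and Aqp1 were lower, at -2.0 ± 0.33 and -2.68 ± 0.20 on the log2 scale (SE, adjusted p = 0.00422 and 9.79e-05, limma), and they are also genes of podocytes and of proximal tubule. The higher genes were Gja1, the gap junction protein connexin 43, at 5.43 ± 0.46 (SE, adjusted p = 0.000173, limma), Cav1 at 5.31 ± 0.84 (SE, adjusted p = 0.00342, limma) and Ltbp4 at 1.58 ± 0.37 (SE, adjusted p = 0.0191, limma). Cav1, measured on 1 Control array, and Ltbp4 are named after their values were seen, and many non-endothelial cells make all 3. Only 2 genes of this list were lower with normexp and the 75th percentile, where 971 of all genes were, against 2472 as reported.

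Markers of other kidney cells were counted too, beside the 11.9% higher and 11.5% lower of all genes. Proximal tubule markers were lower in 10 of 12 tested and higher in 1, and their summed relative signal ranged from 791 to 1039 in Control and from 46.1 to 62.3 in APL. Thick ascending limb and distal tubule markers were lower in 3 of 7 (summed signal 45.2 to 62.6 and 3.02 to 20.5). Collecting duct markers were higher in 1 of 9 (2.81 to 7.34 and 5.31 to 23.0), and podocyte markers higher in 2 and lower in 2 of 10 (4.14 to 5.49 and 3.33 to 5.82). Against these, the summed signal of the 28 tested panel genes was 20.2 to 26.1 in Control and 6.02 to 8.83 in APL. Such a sum adds different probes and is set by its brightest genes, and in Control most of it came from Plvap, Kdr, Vwf and Vegfa, the last a ligand that other kidney cells make.

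Macrophage markers were higher in 6 of 10, against 11.9% of all genes (13.6 to 18.5 in Control and 36.2 to 50.3 in APL). Fibroblast markers were higher in 2 and lower in 1 of 5 (13.6 to 17.2 and 28.9 to 90.7). Pericyte, mesangial and smooth muscle markers were higher in 1 of 13, below the share over all genes (8.74 to 10.6 and 9.02 to 14.1). Lymphocyte markers passed the test in 0 of 6 (0.830 to 1.41 and 0.743 to 1.42), as did platelet markers in 0 of 6 (0.440 to 0.758 and 0.476 to 0.768), a cell type that also carries Pecam1 and Vwf. Lymphatic endothelial markers were higher in 2 of 5 (0.112 to 0.301 and 3.62 to 6.09). That sum was nearly all Pdpn, podoplanin, which was measured on 0 of 4 Control arrays and at least 286-fold higher, and which is not confined to lymphatic vessels.

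Red cell genes were lower in 3 of 6, against 11.5% of all genes, with summed signals of 20.8 to 48.1 in Control and 1.39 to 8.00 in APL. Hba-a1, Hbb and Hbb-b1, 3 globins with near-identical copies that probes may share, were lower, with log2 fold changes of -3.87 ± 0.57, -4.01 ± 0.71 and -4.07 ± 0.66 (SE, adjusted p = 0.00235, 0.00588 and 0.00393, limma). The part of red cells and of the other cell types in the endothelial result was not tested.

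The panel as a whole can also be set out by array. Per array, the median over the 28 genes of the log2 value minus the Control mean was -1.43, -1.70, -1.90 and -1.05 in APL replicates 1 to 4 and 0.42, 0.19, -0.21 and -0.35 in Control replicates 1 to 4. Between 21 and 24 of the 28 genes lay below the Control mean on each APL array, and between 9 and 17 on each Control array. These values describe the arrays and include genes that passed the filter mainly through their Control arrays.

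The calls of the 12 lower genes depended unevenly on the processing. Plvap, Kdr and Vwf kept the call in all 11 alternatives that used all 8 arrays and in each fit that left out an array. Pecam1, Flt1, Tek, Fli1 and Vegfa lost no call when an array was left out. Emcn, Tie1, Calcrl and Sox18 did. With normexp and the 75th percentile, a setting that adds an offset of 50 to every signal and raised the median of all genes to 0.36, 4 of the 12 were called: Plvap, Kdr, Vwf and Vegfa. With normexp and quantile normalization 11 were called. Slide 1 alone, with 2 arrays a group, called 5 and slide 2 alone called 2, while all 12 were negative on both slides.

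**Figure D5:**
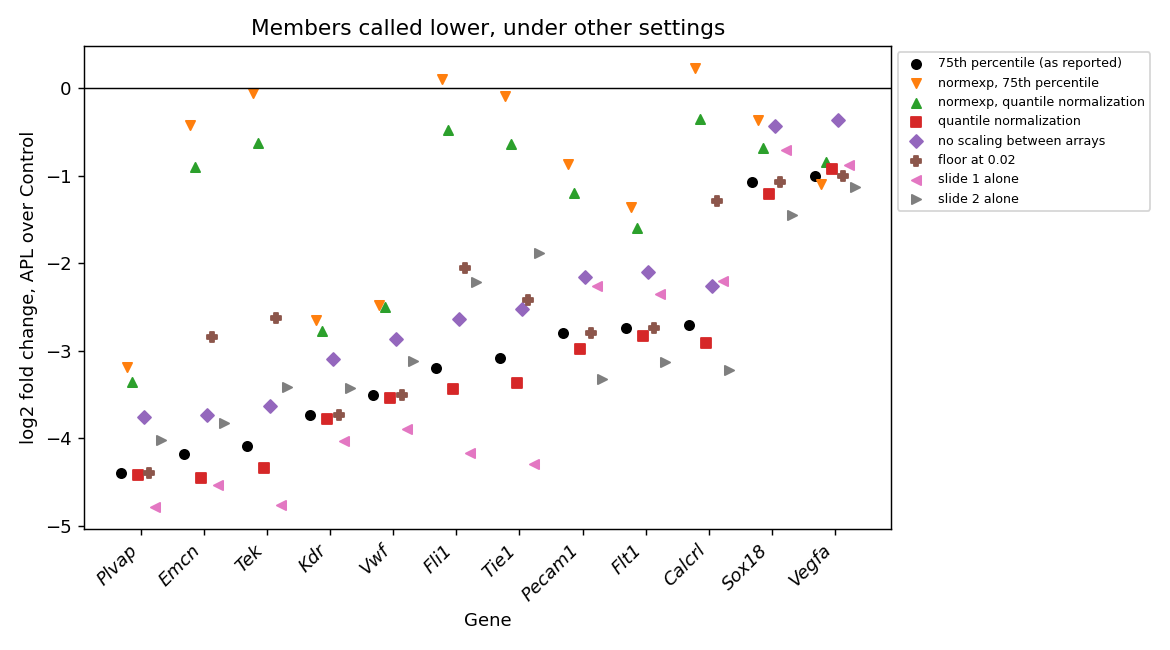
Log2 fold change (APL over Control) of the 12 lower genes as reported (black) and under 5 other settings and on each slide alone. Plvap, Kdr and Vwf stay below -2 under all settings shown, while Emcn, Tek, Fli1, Tie1 and Calcrl come near 0 with normexp and the 75th percentile.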

How the data were processed

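Total RNA of 4 Control and 4 APL kidney samples was read on single-colour arrays with Agilent Feature Extraction 10.5.1.1, per the file headers. The deposited scanner files hold linear intensity values per spot, and the processed signal was already corrected for background, per the file headers. The authors' deposited value table is on a log2 scale. Compared with the scanner files, its values are log2 of the processed signal over the array's 75th percentile, centred per probe on its median over the arrays. Between 91.9% and 95.5% of the values per array, rebuilt so with no floor, lay within 0.01 of it. Its column medians were 0.0338, 0.0662, 0.0771 and 0.00597 in Control replicates 1 to 4 and -0.0724, 0.0186, -0.136 and -0.0445 in APL replicates 1 to 4, and it was used as an alternative. The array header names build rn4, so probes and genes are given no coordinates on that build; promoter windows carry the GRCr8 coordinates of the RefSeq sequence table.

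Spots flagged as non-uniform or as outliers (297 to 600 of 42877 per array) were left out, and spots of a probe were averaged. The signal was divided by the 75th percentile, floored at 0.005 of it, and log2 was taken. Probes well above background on at least 4 of 8 arrays were kept, and the probe with the highest mean log2 value over the 8 arrays stood for a gene. Probes were named by RefSeq accession (18643 of 30367 probes, 11724 unnamed). limma 3.58.1 in R 4.3.3 was run with no covariate and tested on simulated data. Where a group had no measured array, a lower bound replaces the fold: the mean log2 of the brighter group less that of, per array, the higher of the lowest measured signal and the probe's own.

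The panel and all lists were chosen with earlier results of these data known. All panel genes are named. Of the further vascular lists, at most the 4 called genes with the largest change, no overlap and 2 or more measured arrays in the dimmer group are named, with the largest bound and any direct partner of a panel gene; a gene outside this rule is said to be named after its values were seen. Lists of other cell types are given mostly as counts and sums. One such gene of the haemostasis list is not reported here. Same-numbered arrays of the 2 groups did not deviate together over genes (r = 0.0112, 0.00994, 0.0473 and -0.0152), and numbers were not taken as pairs. These values cannot exclude a pairing, on which the labels are silent. Precision is limited by the number of arrays. Alternatives were other background corrections and scalings, the floor, the filter, the probe rule, the slide, the replicate number and leaving out each array.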

Additional observations from a re-analysis of the deposited data

Results flagged for a closer look

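In 7 of the 56 groups of 4 arrays formed by the 28 genes tested, the array at one end stood apart, its gap to the nearest array as a share of the group's log2 range, being above Dixon's 95% critical value for 4 samples. Chance gives about 1 such group in 20 where values are not tied at the floor. In the APL group, Cd34 was low in replicate 2 at 0.0427 (gap 0.928 of the range), Flt4 was high in replicate 1 at 2.75 (0.880) and Nos3 was high in replicate 2 at 0.0928 (0.913). Tek and Calcrl were high in APL replicate 4, at 0.0282 (0.937) and 0.0278 (1.0), the only APL array on which either gene was measured. The gaps were taken on floored values. Calcrl lay at the floor on APL replicates 1 to 3, which fixes its gap at 1.0, and Tek lay there on replicates 1 and 3. In the Control group, Flt4 was low in replicate 4 at 0.976 (0.860) and Angpt1 was low in replicate 3 at 0.0172 (0.8294).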

How the results depend on the processing

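Of the panel, 12 genes were lower and 0 higher as reported. The lower count was 4 with normexp and the 75th percentile, 5 on slide 1 alone and 2 on slide 2 alone (fewer arrays). It was 7 of 17 tested where all 8 arrays had to be measured, a setting that tested fewer genes. Among all genes that setting gave 1991 higher and 2422 lower. The panel's lower count ranged from 8 to 12 when an array was left out, where its higher count ranged from 0 to 1. Without scaling its higher count was 1. With slide as a block 12 genes were lower. The replicate block, for numbers that no label gives as pairs, gave 9 lower panel genes, with 1643 genes higher and 1617 lower among all genes. Vegfa, Tie1 and Sox18 were not called there (adjusted p = 0.0549, 0.0676 and 0.0656, limma).

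All genes gave 2558 higher and 2472 lower. Counts were 1037 and 971 with normexp and the 75th percentile, 511 and 515 on slide 1 alone, 381 and 279 on slide 2 alone, and 5889 and 1143 without scaling, where 83.7% of calls were higher against 50.9%. With normexp and quantile normalization 2704 were higher and 2558 lower. Leaving out an array gave 1608 to 2203 higher and 1778 to 2018 lower.

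The panel's median log2 fold change of -0.93 became 0.13 with normexp and the 75th percentile, -0.35 with normexp and quantile normalization, -0.29 without scaling, -0.52 with no filter and -1.73 on slide 1 alone. The median of all genes, -0.03 as reported, was 0.36, -0.04, 0.60, -0.02 and 0.01 in these settings, in the same order. The panel's median ranged from -1.06 to -0.80 when an array was left out. The cause of these shifts was not tested.

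Signs turned as follows. With normexp and the 75th percentile: Cldn5 0.29, Icam2 0.48, Clec14a 0.21, Angpt1 0.65, Angpt2 0.46, Calcrl 0.23, Ramp3 0.50, Erg 0.15, Fli1 0.11, Nos3 0.45 and Ehd3 0.36. Without scaling: Cldn5 0.18, Icam2 0.19, Clec14a 0.060, Angpt1 0.26, Angpt2 0.12, Ramp3 0.57, Nos3 0.26 and Ehd3 0.59. The median of all genes was 0.36 with normexp and the 75th percentile and 0.60 without scaling. Below it lay Cldn5, Clec14a, Calcrl, Erg and Fli1 in the former setting, and each gene listed in the latter. With the floor at 0.02, Angpt1 was 0.15 and Angpt2 0.18. With the mean of a gene's probes, Flt4 was -0.021 and Thbd -0.51. With normexp and quantile normalization, Angpt2 was 0.042 and Thbd -0.11, and Thbd was -0.26 with quantile normalization. On slide 1 alone: Cd34 -1.51, Angpt2 0.18, Ramp3 0.72, Thbd -1.07 and Ehd3 0.13. On slide 2 alone: Icam2 2.59, Flt4 -0.28 and Angpt1 1.35. In the authors' value table Ramp3 was 0.015. Leaving out an array moved Icam2 from -1.24 to 0.36, Flt4 from -0.29 to 0.28, Angpt1 from -1.03 to 0.74, Angpt2 from -1.42 to 0.46, Ramp3 from -0.60 to 0.49, Thbd from -0.28 to 0.53 and Ehd3 from -0.67 to 0.46. Of these genes, Calcrl and Fli1 were called as reported.

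Counts in the further lists moved too. Under normexp and the 75th percentile 5 haemostasis genes were higher and 0 lower, 2 vascular growth factors and 0 transcription factors were higher, 2 vasoactive genes were lower, 1 lymphatic marker was higher and 0 pericyte markers were higher. Without scaling 9 vascular growth factors, 6 adhesion partners, 7 transcription factors, 4 pericyte markers and 2 collecting duct markers were higher, and 1 angiogenesis inhibitor was lower. Counts over all genes moved as well, from 2558 higher and 2472 lower as reported. They became 1037 and 971 with normexp and the 75th percentile, and 5889 and 1143 without scaling. The shares of 11.9% and 11.5% belong to the reported fit alone.

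The exact permutation test of 4 arrays against 4 cannot give a p below 0.0286. It gave that value to 10 of the 12 lower genes and 0.0571 to Emcn and Calcrl. Signal over background limits Emcn, Tek, Fli1, Tie1 and Calcrl in APL, and Sox17, Procr, Sele and Selp throughout.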
